A study of Rattus norvegicus with 8 samples.

Results

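The unmethylated CpG-poor regions of the rat genome that lie far from CpG-dense DNA were followed in 5 bladder tumours (called urothelial carcinomas, UCs) and 3 control bladders. The rn6 assembly was divided into regions of 200 bp, and 258144 regions with 3 or more CpGs in each of the 8 samples could be measured. Of these, 185145 lay on the autosomes, held a mean of fewer than 10 CpGs and had no dense region (10 or more CpGs in every sample) starting within 2000 bp. The 13198 regions (7.13%) of this CpG-poor class whose mean level over the 3 controls was under 20% are described here. The control levels therefore chose the regions and are given as a description, whereas the levels of the UCs took no part in the choice.

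The rats were male F344/DuCrj, 10 weeks old at the start. Their drinking water held 0 ppm (controls) or 200 ppm (UCs) dimethylarsinic acid (DMA), an organic arsenic compound, for 104 weeks. The name UC follows the paper, which did no histology on these tumours and took them as UCs from their size and earlier experience. DNA methylation was read by reduced representation bisulfite sequencing (RRBS), in which DNA cut by the enzymes MspI and TaqI is treated with bisulfite so that unmethylated cytosines are read as T. The labels call the controls bladder urothelium and the UCs bladder tumour, while the methods also speak of bladder tissue, and neither says whether the 5 UCs came from 5 rats, so p-values measure only the spread between these samples. The level of a region is the number of C calls divided by all C and T calls over its CpGs, in percent, and differences between levels are in percentage points.

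Most of the mammalian genome is methylated at its CpGs. DNA without methylation is found at CpG-rich promoters, and also in CpG-poor DNA where transcription factors keep an enhancer or a weaker promoter open, so that unmethylated CpG-poor regions often mark the regulatory elements that differ between cell types. A gain of methylation at such elements in a tumour is known both as a change within cells and as a change in which cells a sample holds. In DNA from a whole sample, fewer cells of a type and a lower level per cell cannot be told apart.

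The samples held 51434938 to 73836223 calls in all. A region of the set held 9 to 17890 calls in a sample, with a median of 111, and 9.63% of the regions had fewer than 20 calls in their least read sample. The median number of reads per CpG over these regions lay between 21 and 27.8 in the 8 samples and was higher than over the other CpG-poor regions in 8 of 8 samples, by 2.13 ± 0.939 reads (SD, n = 8, exact two-sided sign-flip test, p = 0.0078, adjusted over 5 comparisons 0.039). UC 1 and UC 2 differed over the set by a root mean square of 5.89 points and UC 4 and UC 5 by 5.32 points, close to the 5.34 to 5.46 points between controls, while other pairs of UCs differed by 12.6 to 15.1 points. UC 3 was 11.1 to 11.9 points from the controls, and the other UCs 17.2 to 21.3 points.

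A part of the set lay at gene starts. No annotation of rn6 was used here, so RefSeq promoter sequences of the GRCr8 assembly were placed on rn6 by matching the spacing of their CpGs to the CpGs read, which placed 9908 of 33469 promoters. Within 1000 bp of a placed start site lay 1823 of the 13198 regions (13.8%), against 0.586% of the other CpG-poor regions of the class and 53.7% of the dense regions with a control mean under 20%. Among the 6845 regions with a control mean under 5% the share was 23%, and among the 2163 regions at 15 to 20% it was 2.45%. A further limit of the rule is that 2392 regions (18.1%) lay within 2000 bp of a region in which 10 or more CpGs were seen in any sample, against 3.07% of the other CpG-poor regions, because a dense region had to be read in every sample to count. Start sites that could not be placed are missing from these counts, which lowers the share at a start site, while a start placed wrongly can raise it.

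Methylation gains in the UCs reached many of these regions while the median level stayed low. The median level over the set was 3.68% to 4.55% in the controls and 2.83% to 4.32% in the UCs, so that the middle of the distribution overlapped between the groups. The upper end did not overlap. A level over 30% was found in 0.349%, 0.235% and 0.174% of the regions in controls 1, 2 and 3, and in 17.7%, 17.1%, 9.20%, 14.3% and 13.9% of the regions in UCs 1 to 5. The control shares are small by the choice of the regions, and the plot of shares by sample shows UC 3 closest to the controls.

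**Figure D1:**
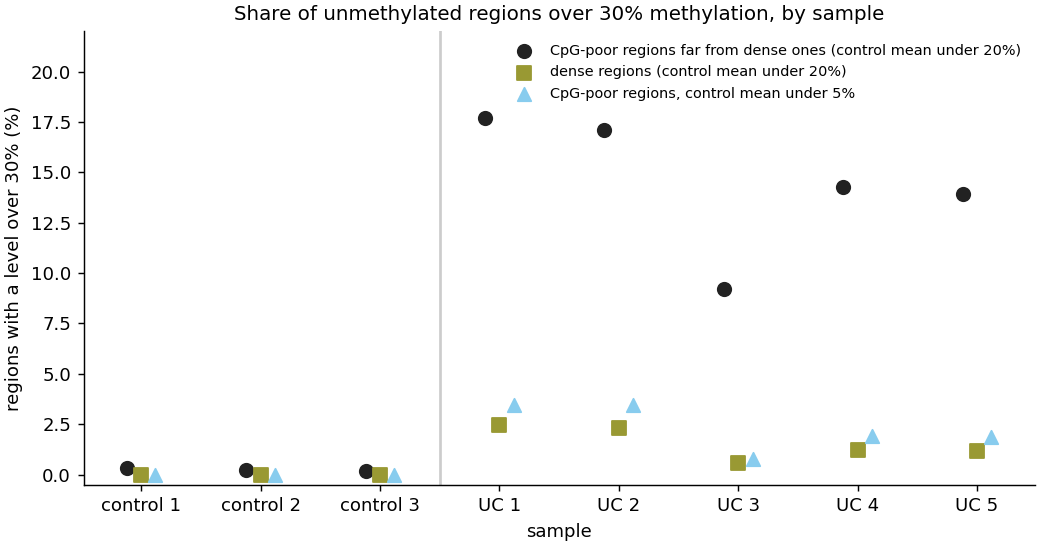
Share of regions with a level over 30% (percent, vertical axis) in each of the 8 samples (horizontal axis), for the 13198 CpG-poor regions far from dense ones (circles), for dense regions with a control mean under 20% (squares) and for the CpG-poor regions with a control mean under 5% (triangles). The circles lie between 9.20% and 17.7% in the UCs, above the squares in all 5 UCs, and the triangles lie between 0.774% and 3.45%.

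Since the choice of regions by their control mean pulls the control levels down, the set was also chosen by 2 controls and read in the control left out. With control 1, 2 or 3 left out, the choice gave 13401, 13398 and 13017 regions. The mean level over them was 7.98%, 7.83% and 6.70% in the control left out and 13.2%, 12.7% and 12.2% over the UCs, a difference of 5.18, 4.88 and 5.54 points. A level over 30% was found in 2.13%, 2.08% and 1.17% of the regions in the control left out. In the same 3 sets, the share in a UC lay between 9.08% (UC 3) and 18.8% (UC 1), above the control left out in every UC.

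In the quasi-binomial test with limma-moderated dispersion and Benjamini-Hochberg adjustment over all 258144 regions, a region was called when its adjusted p was under 0.05 and the group means differed by over 10 points. Of the 13198 regions, 1736 (13.2%) were called higher in the UCs, against 9.29% of all regions tested, and 487 (3.69%) were called lower, against 7.15%. The median control mean over all regions tested was 73.4%, so most of those had less room to rise than the set. Whether the gap in shares goes beyond this was not tested. Every UC lay above every control in 2355 regions (17.8%, background 15.4%) and below every control in 1244 (9.43%, background 10%). A fall of over 10 points was possible only in the 4154 regions with a control mean over 10%, of which 11.7% were called lower. The calls depended on the number of controls: without control 1, 2 or 3, 1035, 945 and 881 regions were called higher and 291, 256 and 307 lower, while leaving out a UC gave 1403 to 2129 higher and 346 to 726 lower. When UC 1 with UC 2 and UC 4 with UC 5 were merged into single samples, 953 were called higher and 232 lower.

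Among the regions called higher the differences were large. The difference had a median of 32.5 points, and every UC lay above every control in 90.5% of them. Their mean level was 12.4%, 11.5% and 10.1% in controls 1 to 3 and 53.1%, 51.8%, 31.4%, 46.6% and 46.8% in UCs 1 to 5. In 828 of them (47.7%) the mean of UCs 1, 2, 4 and 5 was over 50%, and in 163 (9.39%) it was over 80%. The regions called lower fell by a median of 13.0 points, from means of 15.8% to 16.9% in the controls to 2.01% to 5.89% in the UCs. UC 3 was the UC nearest to the controls in both directions: it was the lowest UC in 1184 of the regions called higher (68.2%) and the highest UC in 317 of those called lower (65.1%).

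The share called followed the control level inside the set. With a control mean of 0 to 5%, 351 of 6845 regions (5.13%) were called higher, with 5 to 10% 359 of 2197 (16.3%), with 10 to 15% 424 of 1993 (21.3%) and with 15 to 20% 602 of 2163 (27.8%). Of the dense regions with a control mean under 20%, 4.2% were called higher, but 28720 of those 29898 were at 0 to 5%, where 3.18% were called. In the bins from 5 to 10% and from 10 to 15%, a larger share of dense regions (29.9% in both) than of CpG-poor regions was called higher, and at 15 to 20% a smaller share (24.7%). The dense regions also had more calls in the least read sample (a median of 383, against 69 in the set). Over the 5 UCs, the share over 30% was higher in the set than in dense regions by 12.9 ± 2.62 points, and among regions with a control mean under 5% by 1.65 ± 0.673 points (SD, n = 5, higher in 5 of 5 UCs, exact two-sided sign-flip test, p = 0.0625 each, the smallest p that 5 samples allow).

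**Figure D2:**
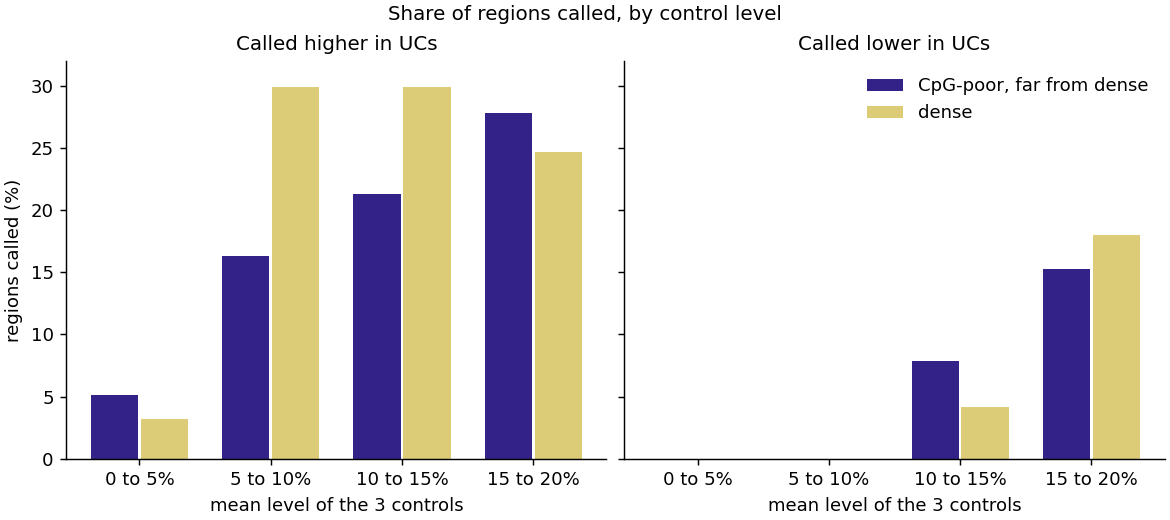
Share of regions called higher (left) or lower (right) in the UCs (percent, vertical axis) by the mean level of the 3 controls (horizontal axis), for the CpG-poor regions far from dense ones (dark bars) and for dense regions (light bars). Among the CpG-poor regions the share called higher runs from 5.13% to 27.8%, while dense regions at 5 to 15% stand at 29.9%, and no region under 10% could be called lower by the limit of 10 points.

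Many regions stayed unmethylated in every sample. In 5762 regions (43.7%) the level was 10% or less in all 8 samples, in 4162 (31.5%) it was 5% or less, and in 275 no methylated call was seen in any sample. Those 275 regions held 97 to 2131 calls over the 8 samples with a median of 395, which allows a level of up to 0.759% at the median. On the other side of the limit, 2009 regions (15.2%) had a control at 20% or more although the mean was lower. The regions nearest to the limit were chr10:11934401-11934600 and chr8:44198401-44198600 just inside it (control means of 19.99%) and chr1:168560001-168560200 and chr5:117342201-117342400 just outside it (20% and 20%).

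A smaller share of regions was called at start sites than away from them. Of the 1823 regions within 1000 bp of a placed start, 79 (4.33%) were called higher and 27 (1.48%) lower, and of the 11375 regions away from placed starts 1657 (14.6%) and 460 (4.04%). Of the 1823, 1572 had a control mean under 5%, and among regions under 5% the shares called higher were closer, 2.67% at starts and 5.86% away. The share over 30% in the UCs was lower at starts by 13.4 ± 2.78 points, in 5 of 5 UCs. With a control mean under 5% the share at starts was lower by 2.05 ± 1.11 points, again in 5 of 5 UCs (SD, n = 5, exact two-sided sign-flip test, p = 0.0625 for both, which does not pass 0.05 and is the smallest p that 5 samples allow). Of the 9771 regions that lay away from placed starts and from any region with 10 or more CpGs seen, 1480 (15.1%) were called higher and 432 (4.42%) lower, so the counts of calls rest mainly on regions with neither neighbour.

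Within 150 bp of a placed start lay 844 regions at 696 genes, of which 624 (73.9%) were at 5% or less in all 8 samples. At 40 genes 43 of these regions (5.09%) were called higher, by 10.6 to 62.5 points, and at 12 genes 12 regions (1.42%) were called lower, by 10.1 to 18 points. Both shares were below those over all regions tested, 9.29% called higher and 7.15% called lower. The 43 started from a median control mean of 3.39% and the 12 from 15.8%. The genes named here were picked after their values were seen, as those with large differences and a known role, and their differences are not independent evidence for any gene group. The promoters of 6 of them are shown because a called region covers or adjoins their start site. Each line gives the 250 bases before the start site, in the direction of the gene, from RefSeq (GRCr8), with the CpGs that were read in all 8 samples in capitals.
Septin9: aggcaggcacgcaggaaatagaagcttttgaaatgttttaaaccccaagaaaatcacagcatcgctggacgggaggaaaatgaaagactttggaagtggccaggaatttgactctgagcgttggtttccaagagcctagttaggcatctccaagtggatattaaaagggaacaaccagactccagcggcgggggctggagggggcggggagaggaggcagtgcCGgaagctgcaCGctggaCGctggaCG
Slamf8: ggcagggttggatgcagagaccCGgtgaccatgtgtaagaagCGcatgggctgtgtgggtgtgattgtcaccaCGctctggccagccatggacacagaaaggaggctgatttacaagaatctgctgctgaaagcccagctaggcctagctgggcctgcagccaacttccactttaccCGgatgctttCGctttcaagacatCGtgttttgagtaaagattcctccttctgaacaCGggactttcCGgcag
Wfikkn2: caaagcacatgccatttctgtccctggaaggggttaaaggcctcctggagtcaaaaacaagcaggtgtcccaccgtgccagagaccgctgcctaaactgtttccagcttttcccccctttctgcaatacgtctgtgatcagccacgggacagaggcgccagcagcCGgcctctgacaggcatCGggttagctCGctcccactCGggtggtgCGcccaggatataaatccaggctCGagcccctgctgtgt
Kcnip3: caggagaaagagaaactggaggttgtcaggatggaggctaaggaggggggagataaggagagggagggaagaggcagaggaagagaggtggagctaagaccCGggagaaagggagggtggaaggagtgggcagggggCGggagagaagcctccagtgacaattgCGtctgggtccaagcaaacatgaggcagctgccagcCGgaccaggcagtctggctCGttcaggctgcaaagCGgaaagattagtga
Upk3a: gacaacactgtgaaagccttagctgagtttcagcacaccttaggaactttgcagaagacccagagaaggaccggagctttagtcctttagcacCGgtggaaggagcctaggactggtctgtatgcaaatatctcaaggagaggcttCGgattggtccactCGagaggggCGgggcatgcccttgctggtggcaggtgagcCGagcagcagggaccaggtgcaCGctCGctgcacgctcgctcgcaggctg
Slc14a1: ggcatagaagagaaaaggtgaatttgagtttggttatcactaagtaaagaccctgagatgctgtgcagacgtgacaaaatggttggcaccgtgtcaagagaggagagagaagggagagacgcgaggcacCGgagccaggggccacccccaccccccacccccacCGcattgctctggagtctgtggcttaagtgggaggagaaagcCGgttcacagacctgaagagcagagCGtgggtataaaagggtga

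On rn6 these stretches match chr10:106192265-106192514 (Septin9, plus strand), chr13:90977344-90977593 (Slamf8, minus strand), chr10:81942252-81942501 (Wfikkn2, minus strand), chr3:120087025-120087274 (Kcnip3, minus strand), chr7:125920107-125920356 (Upk3a, plus strand) and chr18:74485140-74485389 (Slc14a1, minus strand), as far as the CpGs read can tell. The match rests on 9 of 13 CpGs in the 300-base window (250 bases before the start and 50 after it) for Septin9 and Upk3a, 8 of 9 for Slamf8, 7 of 12 for Wfikkn2, 8 of 8 for Kcnip3 and 6 of 8 for Slc14a1. The 715 promoters beside these regions held a median of 15 CpGs in 300 bases, against 23 in the 9908 placed promoters and 7 in all 33469. The gap to the placed promoters follows in part from the rule, which leaves out CpG-dense DNA. The 41 promoters with a region called higher held a median of 13 CpGs and the 12 with a region called lower 10.

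Septin9 encodes a septin, a GTP-binding protein of the cytoskeleton, and had the largest gain within 150 bp of a start site. The region chr10:106192401-106192600 stood at 17.9%, 18.2% and 16.6% in the controls and at 91.2%, 84.6%, 58.0%, 84.7% and 81.8% in UCs 1 to 5. The groups did not overlap, and the difference was 62.5 points (adjusted p = 0.0015, quasi-binomial test). Of the CpGs read in all samples, the 6 between 27 bp before and 44 bp after the start all had every UC above every control, with UC means of 80.4% to 88.5%.

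At Slamf8, which encodes a receptor of the SLAM family found on myeloid cells, the region chr13:90977201-90977400 was at 11.2%, 11.3% and 6.10% in the controls and at 87.3%, 96.9%, 37.0%, 66.9% and 59.2% in UCs 1 to 5 (adjusted p = 0.013). All 8 CpGs shown in capitals had every UC above every control. The Slamf8 call was lost with merged UC pairs (a difference of 54 points) and without control 1, 2 or 3 (60.8, 60.8 and 58.2 points). At Wfikkn2, which encodes a secreted protein that binds growth factors of the myostatin type, the region chr10:81942201-81942400 was at 11.3%, 14.0% and 10.3% in the controls and at 79.1%, 67.1%, 19.8%, 71.3% and 58.7% in the UCs (adjusted p = 0.018). Every UC lay above every control at 4 of its 6 CpGs. The Wfikkn2 call was lost with the F-test on percentages, with merged UC pairs (41.2 points) and without control 1, 2 or 3 (47.1, 48.4 and 46.6 points). UC 3 was the lowest UC at both, and at Wfikkn2 it was within 10 points of the highest control.

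Kcnip3 encodes a calcium-binding partner of potassium channels that also binds DNA, and started from a low level. The region chr3:120087001-120087200 was at 1.94%, 2.77% and 2.95% in the controls and at 54.7%, 51.8%, 19.2%, 38.2% and 29.3% in the UCs (adjusted p = 0.0051). In 7 of its 8 CpGs every UC lay above every control, and the lowest number of reads on a CpG in a sample was 3. Layn, a receptor for hyaluronan, went from 3.51% to 5.5% in the controls to 10.0% to 54.4% in the UCs, and Fbxl2, an F-box protein of ubiquitin ligases, from 0% to 2.48% to 7.69% to 56.4%.

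Other genes with a region called higher at the start included receptors, enzymes and regulators. The calcium-sensing receptor Casr rose from a control mean of 1.51% ± 1.54 (SD, n = 3) to a UC mean of 27.2% ± 10.9 (SD, n = 5), the serine protease inhibitor Tfpi2 from 1.26% ± 0.362 to 16.2% ± 10.2, the T-box factor Tbxt from 0.601% ± 1.04 to 14.9% ± 4.94 and the NADPH oxidase Nox4 from 3.72% ± 2.27 to 14.5% ± 1.49. Neighbouring regions were both called higher at Epha3, an ephrin receptor (to UC means of 22.7% and 11.9%), and at Oxct2b, an enzyme of ketone body use (34.2% and 28.8%). Of the 43 regions, 38 had every UC above every control, and UC 3 was the lowest UC in 27.

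The regions called lower at start sites included those of Upk3a and Slc14a1. Upk3a encodes uroplakin 3A, a membrane protein of the plaques that cover the urothelium, and Slc14a1 encodes the urea transporter of urothelial and red blood cells. At Upk3a the region chr7:125920201-125920400 was at 16.7%, 13.8% and 15.5% in the controls and at 1.47%, 0.357%, 8.11%, 1.89% and 0.441% in UCs 1 to 5, a fall of 12.9 points (adjusted p = 0.018). The Upk3a call was lost with merged UC pairs and without control 1, 2 or 3, where the fall was 12 points and 12.2, 13.6 and 12.8 points. At Slc14a1 the region chr18:74485001-74485200 was at 7.04%, 13.6% and 17.2% in the controls and at 0%, 0%, 1.49%, 0% and 1.28% in the UCs, a fall of 12.1 points (adjusted p = 0.0057). The Slc14a1 call was lost without control 3, where the level fell by 9.78 points. The groups did not overlap at either region, and UC 3 was the highest UC at both.

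Upk3a was the only gene of the urothelial list with a region of the set within 10000 bp of its placed start. The list holds 25 genes, of which 6 were placed. Upk3a had 3 such regions, of which 1 was called: the region at chr7:125915401-125915600 had a control mean of 17.9% and a UC mean of 7.59%, with UC 3 at 21.4%, and the region chr7:125920401-125920600 had means of 12.4% and 3.10%. Of the lists for other cell types, smooth muscle (3 of 10 genes placed) had 1 region, at Synpo2, which encodes an actin-binding protein of muscle (2.99% in controls, 5.84% in UCs), and immune cells (2 of 11 placed) had 2 regions near Runx3, which encodes a transcription factor of lymphocytes (9.04% and 9.79% in controls, 14.2% and 17% in UCs). None of those 3 was called, and fibroblasts (1 of 10 placed) and endothelium (1 of 6 placed) had 0 regions. These lists describe position, the cell types in the samples were not measured, and their part in the gains and falls was not tested.

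The other start regions called lower were at genes with varied roles. At Eps8l2, which encodes a regulator of actin, the region fell from 14.4% to 18.1% in the controls to 0.604% to 8.66% in the UCs. At Fes, which encodes a tyrosine kinase, it fell from 8% to 27.5% to 0% to 3.08%, and at Slc44a2, a choline transporter-like protein, from 7.84% to 20.5% to 0.885% to 8.87%, where control 1 lay below UC 3. The other named genes were Rbp7, a retinol-binding protein, Slc25a45, a mitochondrial carrier, Cmbl and Prrg2, and 3 loci had no name beyond a number. UC 3 was the highest UC in 11 of the 12 regions.

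**Figure D3:**
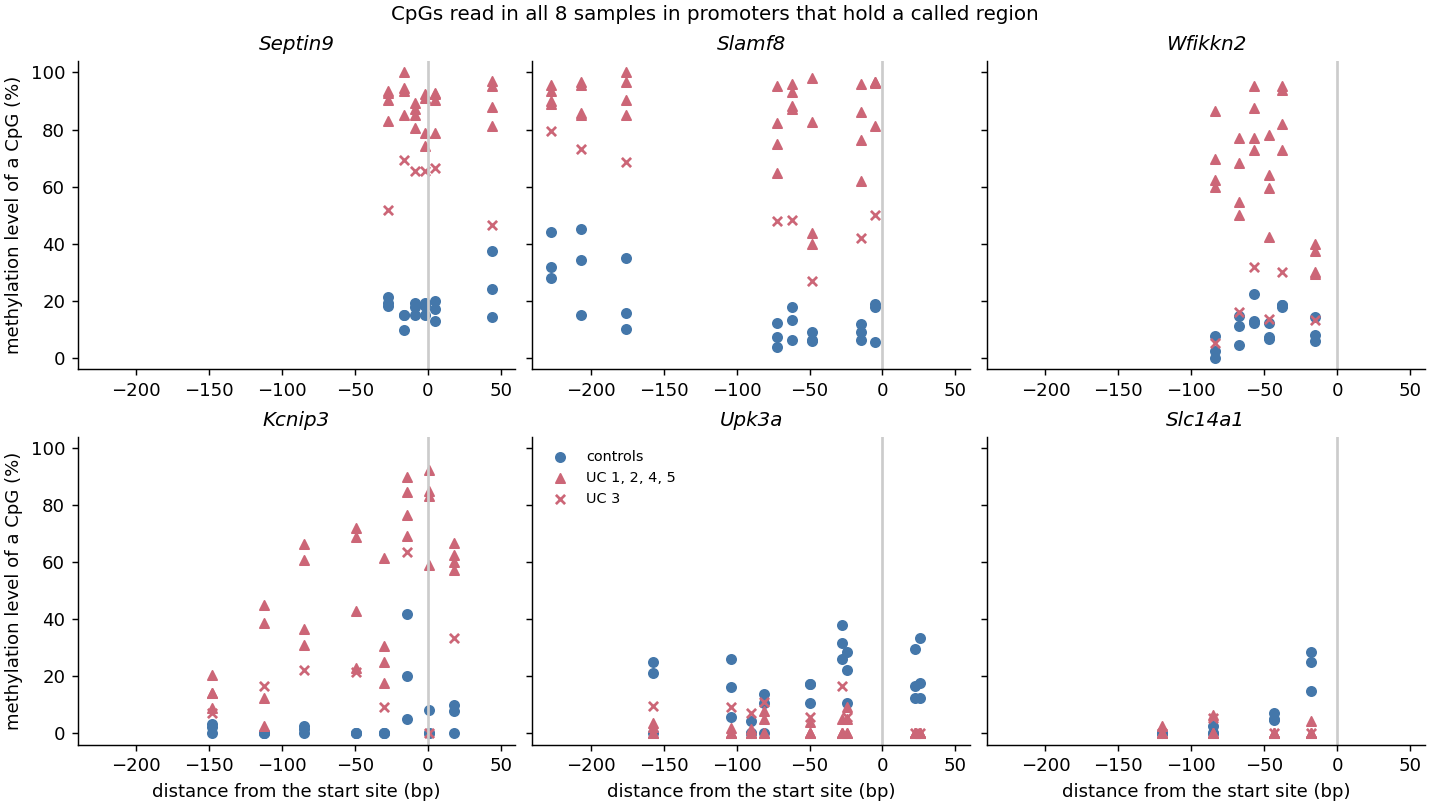
Level of each CpG read in all 8 samples (percent, vertical axis) by its distance from the start site (bp, horizontal axis, negative before the start) for 6 genes, with controls as circles, UCs 1, 2, 4 and 5 as triangles and UC 3 as crosses. At Septin9 and Slamf8 all UCs lie above all controls at every CpG, whereas at Upk3a 5 of 9 CpGs and at Slc14a1 2 of 4 have every UC below every control.

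Motifs were counted in the 300-base promoters on both strands, as a description of letters and not of binding. The GC box GGGCGG was present in 56.5% of the 715 promoters, in 43.9% of the 41 called higher and in 41.7% of the 12 called lower, against 68.3% of the placed promoters and 33.1% of all promoters. The ETS core CCGGAA, which contains the MspI site CCGG, was present in 33.7%, 17.1% and 8.33%, against 32.2% and 15%. The AP-1 motif TGANTCA was present in 5.31%, 9.76% and 8.33%, against 3.72% and 7.33%. With 41 and 12 promoters, 1 promoter moves a share by several points. The placed promoters are those with readable CpGs, and MspI sites were present in 96.5% of them and in 51.4% of all promoters.

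The surroundings of the regions had lower control levels than those of other CpG-poor DNA. Both groups of regions were chosen by control level, and nearby regions can share their level, so this gap is a description. Flanks outside the set were also sorted by control level. Controls and UCs are therefore not exchangeable, and the differences between them below are given without a test. In the controls, flanking 200-bp regions outside the set, with at least 1 CpG in every sample, had a mean level of 21.5% ± 0.357 within 400 bp and of 61.5% ± 0.330 at 1600 to 2000 bp (SD, n = 3). Around the other CpG-poor regions of the class the corresponding levels were 75.3% and 73.0%. In the UCs the flanks of the set within 400 bp were at 25.1% ± 1.98 (SD, n = 5), 3.54 points higher. At 1600 to 2000 bp they were at 59.6%, 1.91 points lower. Over the whole 2000 bp the flanks outside the set differed by 0.219 points, and with members of the set included by 1.36 points.

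Around the regions that were called higher and lay away from placed starts, the dip in methylation was shallower in the UCs. Flanks outside the set within 400 bp went from 26.7% ± 0.721 in the controls to 52.1% ± 7.61 in the UCs, and at 1600 to 2000 bp from 63.0% to 65.5%. Around the regions called lower, the flanks within 400 bp went from 33.4% ± 1.08 to 16.7% ± 2.63 and at 1600 to 2000 bp from 64.9% to 58.3%. Around regions at 10% or less in all 8 samples they went from 14.1% ± 0.365 to 12% ± 0.395. These groups were chosen by the levels of the UCs, so their flanks are given without a test.

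**Figure D4:**
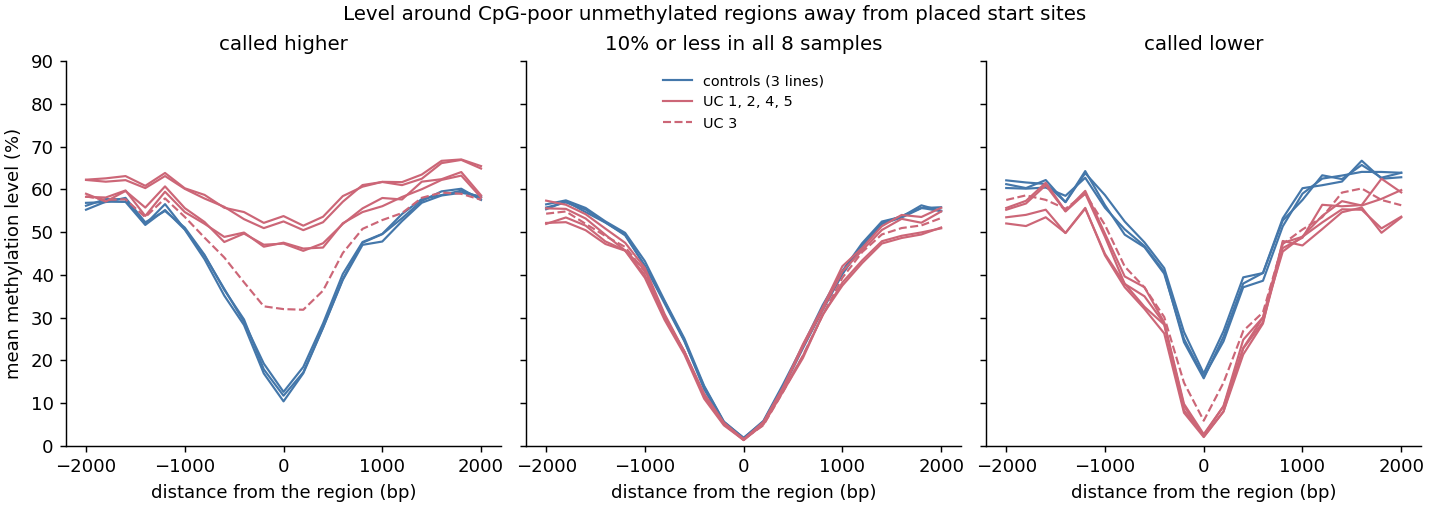
Mean level of 200-bp regions (percent, vertical axis) by distance from the region (bp, horizontal axis), one line per sample, around regions away from placed starts that were called higher, were at 10% or less in all 8 samples, or were called lower. The lines include flanks that are themselves in the set. Within 400 bp on the left, UC 3 (dashed) lies between the controls and the other UCs. The means of flanks outside the set only, which are not drawn, differ from the lines. Within 400 bp they were 26.7% in the controls and 52.1% in the UCs around regions called higher (left). Around regions called lower (right) they were 33.4% and 16.7%.

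Gains were shared between UCs in several combinations. A region was counted as gained in a UC when its level was over 20 points above the highest control. A gain was seen in 1 or more UCs in 2902 regions (22%). Gains were not counted over all regions tested, so neither this share nor the combinations can be called particular to the set. The number of gained regions was 2069, 2000, 762, 1568 and 1538 in UCs 1 to 5. The most frequent combinations were UC 1 with UC 2 (580 regions), UCs 1, 2, 4 and 5 (504), all 5 UCs (436) and UC 4 with UC 5 (255). A gain in UC 3 alone was seen in 97 regions.

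**Figure D5:**
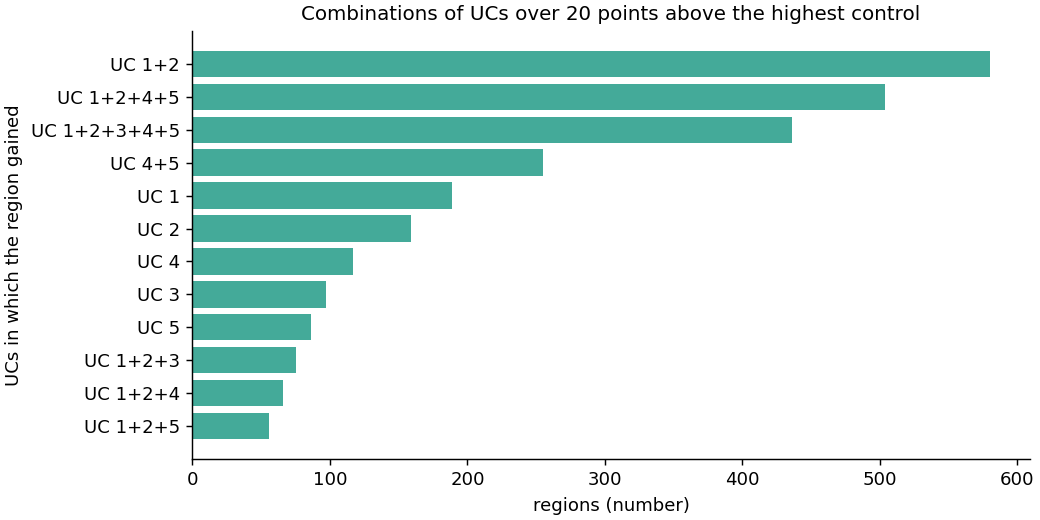
Number of regions (horizontal axis) for the 12 most frequent combinations of UCs (vertical axis) in which a region was over 20 points above the highest control. UC 1 with UC 2 leads with 580 regions, and all 5 UCs together share 436.

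The largest gains of the set were in regions with few calls. The region chr16:46637601-46637800 was at 9.09%, 18.2% and 8.33% in the controls and at 90.3%, 95.7%, 77.8%, 95.2% and 100% in the UCs, on 9 to 46 calls per sample. The 95% Wilson interval of UC 3 there, from 9 calls, ran from 45.3% to 93.7%. It covers counting error only and treats the calls as independent. CpGs of the same read are not independent, so the interval can be too narrow. The difference of 79.9 points was the largest of the set (adjusted p = 0.0012, quasi-binomial test), and the nearest placed start, of Tenm3, was 213831 bp away.

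The region chr18:74578401-74578600 rose by 79.8 points, from 0% to 15.6% in the controls to 71.4% to 100% in the UCs. It lay 93361 bp from the placed start of Slc14a1, where the region at the start fell. At chr12:43634401-43634600, 170 bp from the placed start of LOC102552816, the levels were 19%, 26.7% and 4.17% in the controls, 74.1% in UC 3 and 100% in the other UCs. The regions chr5:78642001-78642200, chr19:59507201-59507400 and chr10:17219601-17219800 rose by 76.0, 74.7 and 74.5 points. All 6 were chosen for every UC lying above every control, and each had a sample with 15 or fewer calls.

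The largest falls were bounded by the control limit. The region chr3:4007001-4007200 went from 10.8%, 27.3% and 18.5% in the controls to 0% in all 5 UCs, on 17 to 42 calls per sample. If calls are taken as independent, 0 of 17 calls in UC 3 allows a level of up to 17.6%. In UC 1, 0 of 42 calls allows one of up to 7.14%. The regions chr3:160968401-160968600 and chr15:19871001-19871200 fell by 18.6 and 18.5 points, with UC 3 at 4.08% and 5.56% and the other UCs at 0%. The values in UC 3 rest on 2 of 49 and 1 of 18 calls, and the 0 calls of the other UCs allow levels of up to 4.76% to 10.7% and of up to 10% to 30%, so a difference between UC 3 and the other UCs was not detectable at this depth. The call at chr3:160968401-160968600 was lost without control 2, and the call at chr15:19871001-19871200 with the F-test, with merged UC pairs and without control 1 or 3.

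Some regions differed widely between the UCs. The region chr13:69682601-69682800 was at 13.5%, 7.41% and 12.2% in the controls, at 1.85%, 12.2% and 0% in UCs 1 to 3 and at 100% and 86.7% in UCs 4 and 5. At chr10:97912201-97912400, 15803 bp from the placed start of Wipi1, the levels were 4.55% to 9.82% in the controls, 93.0% and 86.2% in UCs 1 and 2, 1.96% in UC 3, and 26.5% and 45.3% in UCs 4 and 5. At chr4:178414201-178414400 UCs 1 to 5 were at 62.5%, 66.7%, 0%, 93.9% and 72.2%, on 12 calls in UC 3, where 0 calls allow a level of up to 25%. This chr4 region was called higher in the UCs (50.1 points, adjusted p = 0.023, quasi-binomial test). The chr13 and chr10 regions were not called (adjusted p = 0.64 and 0.12, same test). The 95% Wilson intervals of UC 1 and UC 2 did not overlap at chr13:69682601-69682800 (0.509% to 6.50% and 6.96% to 20.6%). Those of UC 4 and UC 5 did not overlap at chr10:97912201-97912400 (19.8% to 34.5% and 38.1% to 52.6%). In the remaining comparisons within these pairs the intervals overlapped. CpGs of the same read count as separate calls here, so the intervals can be too narrow and the lack of overlap is not firm.

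The 3 most read regions at 5% or less in all 8 samples were all on chromosome 11. The region chr11:66029401-66029600 was at 0.69%, 0.69% and 1.05% in the controls and at 0%, 0%, 1.87%, 0.891% and 0.969% in the UCs. It held 214 to 335 calls in the controls and UCs 1 to 3, but 2356 in UC 4 and 2683 in UC 5. At chr11:65935801-65936000 the corresponding numbers were 147 to 285, 1983 and 2391, and at chr11:87299601-87299800 435 to 684, 1287 and 1740. The surplus of calls in UCs 4 and 5 at these regions left their levels under 2%.

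Some regions of the set stood alone and others in runs. Joined where starts lay within 2000 bp of each other, the 13198 regions formed 8757 runs, of which 5916 held a single region, the others held 2 to 11, and 3 held 11. In the run chr16:21285601-21290600, whose nearest placed start, of Cilp2, was 176 bp away, 0 of 11 regions were called. In the run chr19:20606201-20613200, whose nearest placed start was 198751 bp away, 6 of 11 regions were called higher. There the median over the run was 2.25%, 1.85% and 2.39% in the controls and 25.6%, 25.4%, 5.66%, 13.6% and 13.8% in UCs 1 to 5, so that UC 1 was close to UC 2, UC 4 close to UC 5, and UC 3 nearest to the controls.

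The regions were spread over all 20 autosomes. They made up 5.35% (chromosome 9) to 8.84% (chromosome 10) of the CpG-poor class, and 10.4% (chromosome 9) to 16.5% (chromosome 4) of them were called higher. They held a median of 5 CpGs, against 4 in the other CpG-poor regions. Of their CpGs, 0.262% showed a sign of a base variant (a share of G under 0.9 among opposite-strand G and A calls), against 0.399% in the other CpG-poor regions. Among the regions called higher it was 0.452%. With such CpGs left out and the set chosen again, 1719 regions were called higher.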

How the data were processed

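RRBS calls of 3 controls and 5 UCs were analysed as labelled. The authors used RRBSMAP for alignment (rn6) after trimming, and only uniquely placed reads, 1 for each barcode and position, were retained. The submitters' processing notes also name HOMER. The deposited files list for each CpG (strands merged) a count of C, a count of C plus T, the G and G plus A counts of the opposite strand, the effective C and T count, and a ratio. As deposited, the effective count is an expected count, the C and T count multiplied by the opposite-strand share of G. The deposited ratio is a fraction and was not used. The files hold no CpG under 3 reads.

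C and all calls were summed over 200-bp regions. The regions and gene lists, and the alternatives, were chosen with earlier results of these data known. Groups were compared by a quasi-binomial F-test with dispersion moderated by limma 3.58.1 (R 4.3.3) and Benjamini-Hochberg adjustment over 258144 regions, checked on simulated calls. The simulated samples were independent of each other, so the check does not cover alike pairs such as UC 1 with UC 2 and UC 4 with UC 5. Single values were compared by exact tests. Totals of 51434938 to 73836223 calls per sample make set-wide shares precise, while single regions can rest on 9 calls. Intervals are 95% Wilson intervals, and 3 counts set the limit of a 0. Both treat calls as independent, although CpGs of the same read are not, so both can be too narrow. Promoters of 300 bases (RefSeq, GRCr8) were placed on the CpGs read by their spacing, with 7 or more matching CpGs and 3 more than the next best place, or, between placed neighbours, 5 or more. The mapping was checked on genes that the study lists with positions: 145 of 155 (93.5%) lay within 500 bp. The check was not made separately for promoters with few CpGs. Those beside the set held a median of 15 CpGs, against 23 in all placed promoters. A genome of rn6 was not used here, so gene bodies and exons are not given. Named regions are the 6 largest gains with separated groups, the 3 largest falls, the 3 most read ones at 5% or less, the 3 with the largest range among UCs, the first 2 of the longest runs in genome order, and 2 on each side of the limit. Genes at starts were named after their values were seen. Alternatives were 10 reads per CpG, the mean of CpG levels, the effective count, no CpGs with base variants, a control limit of 10%, a distance of 5000 bp, an F-test on percentages, limma on M values, a replicate block, differences over 20 points or any, merged UC pairs, each sample left out, a choice by 2 controls, and flanks with 3 CpGs. Added after seeing the data were 20 calls per sample and the removal of regions near starts or CpG-rich neighbours. Python 3.11.15, numpy 2.4.6, pandas 2.3.3, scipy 1.17.1 and matplotlib 3.10.9 were used.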

Additional observations from a re-analysis of the deposited data

Results flagged for a closer look

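UC 3 stood apart from the other 4 UCs in 8 of 38 measures tested for a sample far from the rest of its group, and it was the sample that stood apart in all 8. Chance alone flags about 1 in 20 such groups, and these measures share the same 5 samples. Over the regions called higher, 50.1% were over 30% in UC 3, against 73% to 80% in the other UCs. Over the regions called lower, the median was 5.96% and the mean 5.89% in UC 3, against 1.49% to 2.12% and 2.01% to 2.66% in the others. At single regions UC 3 was at 74.1% against 100% at chr12:43634401-43634600, at 4.08% against 0% at chr3:160968401-160968600 and at 5.56% against 0% at chr15:19871001-19871200, where the UCs held 15 to 39, 28 to 63 and 10 to 30 calls. At these 3 regions the other UCs are tied, so that any other value would have been marked, and at the last 2 the 0 calls of the other UCs allow levels of up to 10.7% and 30%, so these marks say nothing about UC 3. At start sites it was at 58.0% against 81.8% to 91.2% at Septin9 and at 8.11% against 0.357% to 1.89% at Upk3a. In the measures without ties UC 3 lay on the side of the controls. The number of tumour cells in the samples was not measured, and its part in this was not tested.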

How the results depend on the processing

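The number of regions stayed within 1.5 times of 13198 in every setting. The number called higher (1736) kept within 1.5 times with 10 reads per CpG, mean CpG levels, effective counts, no variant CpGs, 5000 bp, limma on M values, both other difference limits and both added filters, but was 710 with a control limit of 10%, 918 with an F-test on percentages, 953 with merged UC pairs, and 881 to 2129 when a sample was left out. The number called lower (487) was 313 with 10 reads per CpG, 0 with a control limit of 10% and with a limit of 20 points (both follow from the limit itself), 1009 with no minimum difference, 232 with merged UC pairs, and 256 to 726 when a sample was left out. The replicate numbers are only names here: same-numbered controls and UCs deviated with correlations of 0.0524, -0.00841 and 0.062. With a replicate block 692 regions were called higher and 35 lower, and 580 of the 692 were among the 1736. The cause of these changes was not tested.

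The median difference of 0.337 points over the set was 0.233 with 10 reads per CpG, 0.370 with mean CpG levels, 0.218 with a control limit of 10%, 0.556 away from starts and CpG-rich neighbours, 0.309 to 0.424 when a sample was left out, and 0.437, 0.476 and 0.578 against control 1, 2 and 3 left out of the choice. The flanks outside the set were 37.2 points above the set in the controls, whose levels chose the set, and 46.2 points with 3 CpGs per flank. Of 261 repeats for 15 named regions, 227 kept their call and 34 lost it without a change of direction, 10 of them with the replicate block. With 10 reads per CpG only the 6 regions at start sites could be repeated. The largest gains and the largest falls were not measurable in that setting. The gaps to dense regions (12.3 to 14.0 points) and in depth (1.96 to 2.31 reads) kept their direction when a sample was left out. Regions with few calls limit single levels.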
